A study of Mus musculus with 32 samples.

Results

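The comparison described here asks what Activin-A changes in melanoma cells that are at the same time exposed to IFN-γ for 12 hrs. Its members are 8 of the 32 wells of the series, chosen by their labels: 4 wells of YUMM3.3 cells given 40 ng/ml Activin-A together with 20 ng/ml IFN-γ, and 4 wells given 20 ng/ml IFN-γ only, all collected at 12 hrs. YUMM3.3 is a mouse melanoma line, and all wells come from this 1 line. The other 24 wells hold untreated cells, Activin-A without IFN-γ, and the same 4 treatments at 4 hrs. The untreated and Activin-A wells at 12 hrs enter the filter, the scaling and the estimate of spread behind the calls. Beyond that, the 24 wells describe the genes that differ between the 8. The concentrations are those of the labels, while the study's text also gives another one for Activin-A. Nothing in the labels says that the wells are separate experiments, so that p-values measure the spread between wells.

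Activin-A is a secreted dimer of the TGF-β family. It binds type II and type I activin receptors on the cell surface, and these phosphorylate Smad2 and Smad3, which enter the nucleus with Smad4 and act on genes of the extracellular matrix, of the actin cytoskeleton and of feedback on the pathway itself. IFN-γ signals through its own receptor and the kinases Jak1 and Jak2, acts on genes with the GAS element, and induces IRF1 and a large set of antiviral, antigen presentation and chemokine genes. Many antiviral genes carry a further element, the ISRE, which is bound by IRFs and by complexes that hold STAT2 and IRF9.

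mRNA was measured by BRB-seq, in which the cDNA of each well is barcoded and the 3′ ends of transcripts are counted in a pooled library. The IFN-γ wells held 860807 to 1241095 counts and the wells with both factors 873147 to 909948, so that 3 counts correspond to 2.42 to 3.49 CPM (counts scaled to a common library size). Mitochondrial genes took 1.08% to 1.40% of the counts in these wells. Of 9 melanocyte lineage markers, 9 were in the table, and their summed level was 404 to 409 CPM with IFN-γ and 374 to 460 CPM with both factors. Of 8 leukocyte markers 4 were in the table, at a summed level of 14.1 to 19.2 CPM with IFN-γ and 13.8 to 22.2 CPM with both factors. Of the keratinocyte markers only Krt10 was in the table, with at most 9.31 CPM in a well. Since a CPM is a share of the RNA of a whole well, fewer cells that express a gene and less RNA of that gene per cell cannot be told apart.

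Activin-A raised a small group of matrix, cytoskeletal and Smad target genes in IFN-γ-treated cells and lowered a group in which IFN-induced antiviral genes were frequent. Of 8971 genes tested with edgeR's quasi-likelihood test, 92 (1.03%) were differentially expressed genes (DEGs), at a Benjamini-Hochberg adjusted p under 0.05. With both factors 41 stood above (0.457%) and 51 below (0.568%) their level with IFN-γ. The changes were modest, since 30 DEGs differed at least 1.5-fold and 6 at least 2-fold. Unadjusted p-values under 0.05 were found for 921 genes, and the median log2FC of all tested genes was -0.01. Of all tested genes 4324 were above 0 and 4647 below 0 (51.8%). These values and the called shares are the background for the counts of list members below. The 4 wells of each group did not overlap for 34 of the 41 higher and 43 of the 51 lower DEGs. Over all tested genes this was the case for 206 genes in the higher direction (2.3%) and 310 in the lower direction (3.46%). The number of lower DEGs fell whichever of the 8 wells was left out. It was 32 without replicate 1 and 33 without replicate 2 of the IFN-γ group, and 36 to 50 without any other well. With all 32 wells in the fit it was 35. DESeq2's Wald test called 61 genes, 28 higher and 33 lower, and 60 of them were among the 92. DESeq2 gave an adjusted p for only 4243 genes, and members of the lists below without one could not be called by it. It gave none for 8 DEGs of few counts, among them Syngr1, Oas3, Lpin1, Ifih1, Dtl, Sertad4 and Snx24.

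**Figure D1:**
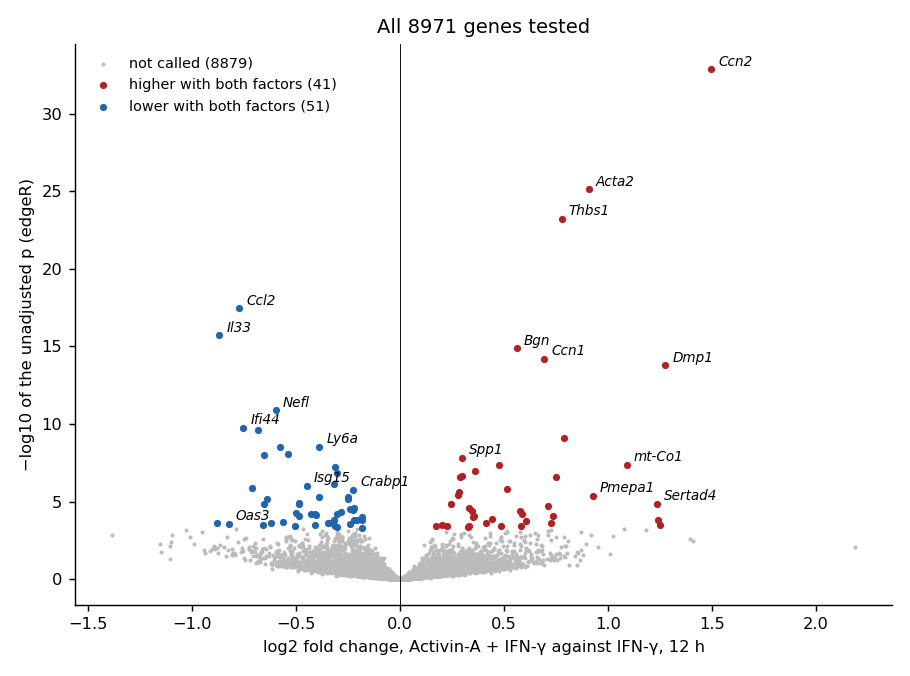
The log2FC of both factors against IFN-γ at 12 hrs (x axis) is plotted against −log10 of the unadjusted edgeR p (y axis) for the 8971 genes tested. The 41 higher DEGs are red and the 51 lower DEGs blue, and Ccn2 has both the highest log2FC among the DEGs (1.50) and the lowest p.

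Ccn2, Thbs1 and Ccn1 rose among the Smad and YAP targets, and Ccn2 had the highest log2FC of all DEGs. Ccn2, also known as connective tissue growth factor, had 129.8, 142, 147 and 148 CPM with IFN-γ and 425, 366, 417 and 393 CPM with both factors. This is a 2.82-fold difference (log2FC 1.50 ± 0.08, edgeR adjusted p = 1.31e-29), and the lowest well with both factors was far above the highest IFN-γ well. Thbs1, which encodes the matricellular protein thrombospondin-1, had 645, 616, 612 and 652 CPM with IFN-γ and 1142, 1009, 1024 and 1148 CPM with both factors (log2FC 0.78 ± 0.06, edgeR adjusted p = 1.89e-20). Ccn1, or Cyr61, a secreted ligand of integrins, had 266, 296, 275 and 245 CPM with IFN-γ and 480.2, 392, 456 and 411 CPM with both factors (log2FC 0.69 ± 0.08, edgeR adjusted p = 7.9e-12). For none of these 3 genes did the wells overlap. Of the list of 22 tested Smad and YAP targets, 3 rose (Ccn2, Thbs1 and Ccn1), 2 fell and 17 were not called. Among all tested genes 0.457% were called higher and 0.568% lower. In the list 15 were above 0, beside 4324 of 8971 tested genes. Its median log2FC was 0.16, or 0.27 without IFN-γ replicate 4. The genes that fell were Tgfbi (log2FC -0.43) and Igfbp3 (log2FC -0.23), which encode a secreted matrix protein and an IGF-binding protein and are known to be induced by TGF-β in many cells. Igfbp3 had 1868, 1814, 1697 and 1756 CPM with IFN-γ and 1522, 1460.1, 1514 and 1585 CPM with both factors, without overlap.

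Among the feedback inhibitors of Smad signaling, Pmepa1, whose product binds and retains receptor-activated Smads, rose from 31.2, 29.0, 28.8 and 34.0 CPM with IFN-γ to 59.3, 52.2, 76.6 and 46.1 CPM with both factors (log2FC 0.93 ± 0.19, edgeR adjusted p = 0.00114). The 11 other tested members of that list were not called. Smad7, the inhibitory Smad, had 25.2, 21.7, 17.1 and 16.6 CPM with IFN-γ and 29.1, 23.3, 25.2 and 30.0 CPM with both factors (log2FC 0.44 ± 0.22, edgeR adjusted p = 0.481), and these wells overlapped. Fst, which encodes the activin-binding protein follistatin, had 1626, 1535, 1646 and 1653 CPM with IFN-γ and 1589.5, 1640.0, 1613 and 1690.0 CPM with both factors (log2FC 0.02 ± 0.05, edgeR adjusted p = 0.954). Of 14 tested receptors and Smads, 0 were called by edgeR or by DESeq2, and 2 had an unadjusted p under 0.05, both lower. The log2FC of the signal transducers Smad2, Smad3 and Smad4 were -0.02, -0.09 and -0.09, and that of the type I receptor Acvr1b was -0.29. The type II receptors Acvr2a and Acvr2b had too few counts to be tested. Among 17 ligands, ligand-binding proteins and BMP readout genes, Inhba and Fstl1 rose and Bmp2 fell. Inhba, which encodes the βA subunit of Activin-A itself, had 57.7, 76.5, 58.6 and 50.5 CPM with IFN-γ and 95.1, 82.2, 84.3 and 76.1 CPM with both factors (log2FC 0.49 ± 0.13, edgeR adjusted p = 0.0392), and the highest IFN-γ well lay above the lowest well with both factors by less than 1 CPM. Fstl1, a secreted follistatin-like protein, had 421, 452, 408 and 475 CPM with IFN-γ and 534, 578, 586 and 562 CPM with both factors (log2FC 0.36 ± 0.06, edgeR adjusted p = 4.25e-05), without overlap. The call of Inhba was kept in 2 and that of Bmp2 in 2 of the 8 fits without 1 of the wells, and DESeq2 called neither.

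Genes of the contractile and actin cytoskeleton gave more higher DEGs than any other list. Of 31 tested members 7 rose, 0 fell and 24 were not called, beside 0.457% higher and 0.568% lower among all tested genes. At an unadjusted p under 0.05, 12 were higher and 0 lower, beside 921 of 8971 genes in either direction. In all, 27 members were above 0, beside 4324 of 8971 tested genes. The median log2FC was 0.13 beside -0.01 for all tested genes. The wells of 12 members did not overlap in the higher direction, against 2.3% of all tested genes. Acta2, or smooth muscle α-actin, showed the clearest change, with 335, 379.5, 360.4 and 365 CPM with IFN-γ and 692, 647, 658 and 705 CPM with both factors (log2FC 0.91 ± 0.06, edgeR adjusted p = 3.38e-22). Cald1 (caldesmon) had 207, 193, 205 and 197 CPM with IFN-γ and 317, 266, 268 and 261 CPM with both factors (log2FC 0.48 ± 0.08, edgeR adjusted p = 1.97e-05), with replicate 1 above the other wells given both factors. Pdlim5, a scaffold protein of actin fibers, had 86.5, 86.9, 82.1 and 82.0 CPM with IFN-γ and 119.8, 113, 111 and 113 CPM with both factors (log2FC 0.44 ± 0.11, edgeR adjusted p = 0.0196). Wells did not overlap for these 3 genes. Tpm1, Cnn2, Flna and Actb, which encode a tropomyosin, a calponin, filamin A and β-actin, rose by smaller steps, with log2FC of 0.30, 0.28, 0.25 and 0.17. Tpm1 had 922, 901, 927 and 1014 CPM with IFN-γ and 1232, 1055, 1159 and 1180.1 CPM with both factors. DESeq2 called 5 of the 7, without Pdlim5 and Actb (adjusted p = 0.0618 and 0.062).

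The promoters of Acta2 and Ccn1 are shown because both genes rose and because both carry the letters GGAATG, the core recognized by TEAD factors, partners of YAP. The sequences are the 250 bases upstream of the RefSeq start sites in GRCm38.p6, at chr19:34255374-34255623 (minus strand) for Acta2 and chr3:145649986-145650235 (minus strand) for Ccn1, written 5′ to 3′ on the strand of the gene. Capitals mark GGAATG or its reverse complement.
Acta2: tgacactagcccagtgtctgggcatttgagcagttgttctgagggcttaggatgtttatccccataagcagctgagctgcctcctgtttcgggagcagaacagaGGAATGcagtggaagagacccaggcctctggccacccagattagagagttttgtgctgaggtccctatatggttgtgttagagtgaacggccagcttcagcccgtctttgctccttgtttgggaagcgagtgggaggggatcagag
Ccn1: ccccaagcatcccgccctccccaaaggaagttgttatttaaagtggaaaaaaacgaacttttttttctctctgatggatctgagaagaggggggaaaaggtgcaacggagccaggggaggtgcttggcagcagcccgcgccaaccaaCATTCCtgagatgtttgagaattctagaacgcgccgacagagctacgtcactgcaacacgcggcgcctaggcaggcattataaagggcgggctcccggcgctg
In 300 bases around the start (250 upstream and 50 downstream), GGAATG on either strand was found for 7 of the 29 higher DEGs with a promoter in the RefSeq table (24.1%), for 6 of 40 lower DEGs (15.0%) and for 969 of 7192 tested genes (13.5%). The 7 genes were Acta2, Ccn1, Cald1, Tpm1, Flna, Timp1 and Eno3. The Smad element CAGAC was found for 11 of 29 higher DEGs (37.9%), 21 of 40 lower DEGs (52.5%) and 3652 of 7192 tested genes (50.8%). The NF-κB letters (GGG, any 2 bases and TTTCC) were found for 2 of 29, 1 of 40 and 128 of 7192 genes (6.90%, 2.50% and 1.78%). Ccn2, Thbs1, Col5a2 and Pmepa1 were not matched by symbol.

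Among matrix genes and their partners, Dmp1, Bgn, Col5a2, Itgb5 and Timp1 rose. Dmp1, an acidic phosphoprotein of mineralized matrix, had 51.7, 36.2, 50.1 and 47.2 CPM with IFN-γ and 121, 91.0, 108 and 127 CPM with both factors. This was 2.42-fold higher with both factors (log2FC 1.28 ± 0.14, edgeR adjusted p = 1.82e-11). Bgn, the proteoglycan biglycan, had 605, 653, 643 and 639 CPM with IFN-γ and 853, 910.5, 938 and 1043 CPM with both factors (log2FC 0.56 ± 0.06, edgeR adjusted p = 2.03e-12). Every well with both factors was above every IFN-γ well for both genes, but only 2 of the 28 tested members of this list were called and its median log2FC was 0.01. Col5a2, a chain of fibrillar collagen V, had 70.9, 81.7, 57.6 and 97.8 CPM with IFN-γ and 118, 147, 151 and 125 CPM with both factors (log2FC 0.79 ± 0.12, edgeR adjusted p = 6.09e-07), and was the only one of 23 tested collagens and collagen-modifying enzymes to be called (15 above 0, median log2FC 0.12, or 0.07 without IFN-γ replicate 1). The integrin Itgb5 had 40.9, 57.9, 59.7 and 59.7 CPM with IFN-γ and 105, 86.6, 104 and 75.0 CPM with both factors (log2FC 0.75 ± 0.14, edgeR adjusted p = 9.29e-05). Itgb7, another integrin β chain, changed in the other direction and had 131, 163, 146 and 147 CPM with IFN-γ and 89.6, 109, 109 and 111 CPM with both factors (log2FC -0.49 ± 0.11, edgeR adjusted p = 0.00302). Timp1, an inhibitor of matrix metalloproteinases, had 1264, 1387, 1424 and 1475 CPM with IFN-γ and 1816, 1630.0, 1662 and 1658 CPM with both factors (log2FC 0.29 ± 0.05, edgeR adjusted p = 9.11e-05), without overlap, while 19 other tested proteases and inhibitors were not called.

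Several of the higher genes had a lower mean with IFN-γ than in untreated cells, as the 4 groups at 12 hrs show side by side. These genes were chosen with the same IFN-γ wells, and that choice favours a low mean in them, so that this profile is a description. In the separate wells at 4 hrs, 2 of the 41 higher DEGs (Dmp1 and Ank) were called lower and 3 higher with IFN-γ than in untreated cells, beside 0.766% and 4.29% of the genes tested there. At 12 hrs Dmp1 had 107 ± 14.5 CPM (SD, n = 4) in untreated wells, 168 ± 34.5 CPM after Activin-A, 46.3 ± 6.99 CPM after IFN-γ and 112 ± 15.8 CPM after both. Col5a2 had 111 ± 12.4 CPM (SD, n = 4) in untreated wells, 229 ± 10.7 CPM after Activin-A, 77.0 ± 17.0 CPM after IFN-γ and 135 ± 16.4 CPM after both. Acta2 had 443 ± 36.2 CPM (SD, n = 4) in untreated wells, 696 ± 29.4 CPM after Activin-A, 360.2 ± 18.4 CPM after IFN-γ and 675 ± 27.3 CPM after both. For these 3 genes the mean with both factors lay above that of untreated cells, by more than the SD for Acta2 and Col5a2 but not for Dmp1. Sertad4, which encodes a SERTA domain protein of low level here, had 10.8, 8.27, 7.46 and 14.9 CPM with IFN-γ and 30.2, 24.4, 27.4 and 18.5 CPM with both factors (log2FC 1.24 ± 0.27, edgeR adjusted p = 0.00312), and untreated cells had 26.2 ± 8.60 CPM. Bgn did not share this profile, with 635 ± 16.9 CPM in untreated cells and 635 ± 20.9 CPM with IFN-γ.

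**Figure D2:**
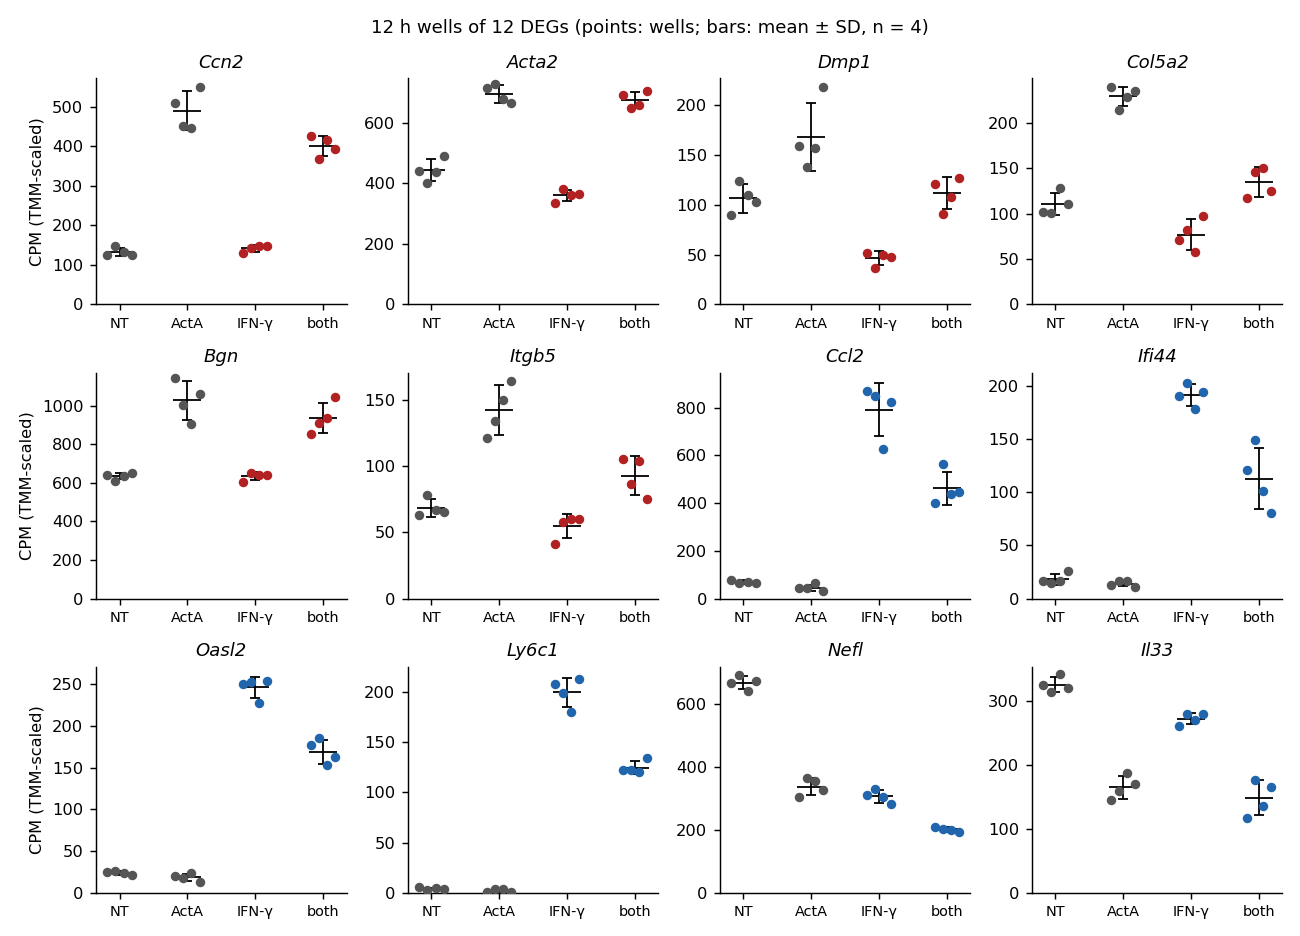
CPM (y axes, TMM-scaled, from 0) of 12 DEGs in each well at 12 hrs, for untreated cells (NT), Activin-A (ActA), IFN-γ and both factors. Points are wells and bars the mean ± SD of 4 wells. Both groups without IFN-γ are grey, and the compared groups are red for higher and blue for lower DEGs.

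Other higher genes belonged to no list and were chosen here after their values were seen. Smoc2, a secreted calcium-binding matricellular protein, had 123, 123, 122 and 121 CPM with IFN-γ and 213, 148, 165 and 171 CPM with both factors (log2FC 0.52 ± 0.10, edgeR adjusted p = 0.000505). The 4 IFN-γ wells of Smoc2 were within 2 CPM of each other, and the wells with both factors were all above them. Msn (moesin), which links actin to the membrane, had 697, 626, 680.2 and 716 CPM with IFN-γ and 814, 842, 839 and 811 CPM with both factors (log2FC 0.28 ± 0.06, edgeR adjusted p = 0.000646). Metrnl, a secreted meteorin-like protein, had 54.1, 49.6, 72.5 and 67.9 CPM with IFN-γ and 91.8, 93.3, 89.7 and 91.1 CPM with both factors (log2FC 0.58 ± 0.13, edgeR adjusted p = 0.00777). Wells did not overlap for these 3 genes. The list of chemokines and cytokines gave 2 higher genes: Spp1 (osteopontin), with 5371, 5361, 5091 and 5139.7 CPM with IFN-γ and 6299.9, 5744, 6704 and 6972 CPM with both factors (log2FC 0.30 ± 0.05, edgeR adjusted p = 7.74e-06), and Csf1, the macrophage growth factor, with 126, 185, 213 and 192 CPM with IFN-γ and 247, 199.9, 221 and 239 CPM with both factors (log2FC 0.33 ± 0.09, edgeR adjusted p = 0.0415). The Csf1 wells overlapped, and its call was kept in 2 of the 8 fits with 1 well left out. Snx24, which encodes a sorting nexin, had 7.21, 11.4, 4.26 and 6.63 CPM with IFN-γ and 13.4, 24.4, 16.4 and 16.2 CPM with both factors (log2FC 1.25 ± 0.34, edgeR adjusted p = 0.0359), a high log2FC at few counts. mt-Co1, a subunit of cytochrome c oxidase encoded in mitochondrial DNA, had 379.8, 221, 297 and 250.2 CPM with IFN-γ and 339, 885, 539.5 and 647 CPM with both factors (log2FC 1.09 ± 0.18, edgeR adjusted p = 1.97e-05). Its wells overlapped and DESeq2 gave an adjusted p of 0.418, while the share of all mitochondrial counts was 1.08% to 1.40% with IFN-γ and 1.26% to 1.33% with both factors.

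Genes induced by IFN-γ were frequent among the lower DEGs. Of the 51, 22 were also called higher with IFN-γ than in untreated cells at 4 hrs (43.1%), in wells that took no part in the comparison, against 4.28% of the 8971 tested genes and 4.29% of the genes tested at 4 hrs. Genes that IFN-γ lowered at 4 hrs were present too, since 4 of the 51 (Nefl, Areg, Cavin3 and Igfbp3) were called lower there (7.84%), against 0.769% of the 8971 tested genes and 0.766% of the genes tested at 4 hrs. The 22 raised genes were antiviral effectors (Oas3, Ifi44, Ifit3, Oasl2, Isg15, Ifitm3), RNA sensors (Ddx58, Ifih1), chemokines (Ccl2, Cxcl10), MHC class I genes (H2-K1, H2-T23), Ly6 family members (Ly6a, Ly6c1, Ly6e), the transcription factor Irf7, and Wars, Txnip, Mlkl, Cd47, Serping1 and Arhgdib. For each of the 22 the mean with both factors was above that of untreated cells, although for Arhgdib only by 480.1 ± 23.7 against 471 ± 40.7 CPM. Wars, a tRNA synthetase that IFN-γ induces in many cells, was raised most by IFN-γ at 4 hrs and had the smallest decrease of the 22, with 85.3 ± 7.56 CPM (SD, n = 4) in untreated wells, 88.4 ± 10.7 CPM after Activin-A, 1456 ± 27.2 CPM after IFN-γ and 1259 ± 78.0 CPM after both (log2FC -0.21 ± 0.05, edgeR adjusted p = 0.02).

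Antiviral effectors were shifted downward as a list. Of 46 tested, edgeR called 6 lower and 0 higher, beside 0.568% and 0.457% of all tested genes. DESeq2 called 4 lower and 0 higher. At an unadjusted p under 0.05 there were 25 lower and 0 higher, beside 921 of 8971 genes in either direction. In all, 45 had a log2FC below 0, beside 51.8% of all tested genes. The exception was Apol6 (log2FC 0.08). The median log2FC was -0.27, beside -0.01 for all tested genes, and it stayed between -0.32 and -0.23 when any 1 of the 8 wells was left out. The wells of 18 members did not overlap in the lower direction, against 3.46% of all tested genes. Mean log2(CPM + 1) over the 46 genes was 6.63, 6.65, 6.47 and 6.57 in the IFN-γ wells and 6.24, 6.36, 6.23 and 6.15 with both factors, and between 4.15 and 4.41 in the 8 wells at 12 hrs without IFN-γ. Every well with both factors was below every IFN-γ well in this mean, and far above every well without IFN-γ. The same list at 4 hrs had a median log2FC of -0.08.

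The called antiviral genes were lower by 1.23 to 1.77 times. Ifi44, an IFN-induced protein of the antiviral response, had 189.9, 203, 178 and 194 CPM with IFN-γ and 121, 149, 101 and 80.8 CPM with both factors (log2FC -0.76 ± 0.11, edgeR adjusted p = 1.62e-07). Oasl2, a 2′-5′ oligoadenylate synthetase-like protein, had 250.0, 253, 228 and 254 CPM with IFN-γ and 177, 185, 153 and 163 CPM with both factors (log2FC -0.54 ± 0.09, edgeR adjusted p = 5.2e-06). Ifit3, which takes part in complexes that bind viral RNA, had 323, 283, 236 and 254 CPM with IFN-γ and 185, 215, 183 and 144 CPM with both factors (log2FC -0.58 ± 0.09, edgeR adjusted p = 1.84e-06). In these 3 genes no well with both factors reached the lowest IFN-γ well. Oas3, which makes the activator of RNase L, had 48.1, 39.3, 28.8 and 38.1 CPM with IFN-γ and 23.5, 24.4, 20.8 and 17.3 CPM with both factors (log2FC -0.82 ± 0.22, edgeR adjusted p = 0.0298), and its call was kept in 2 of the 8 fits with 1 well left out. Ifitm3, a membrane protein that blocks viral entry, had 1633, 1616, 1515 and 1613 CPM with IFN-γ and 1235, 1392, 1232 and 1297 CPM with both factors (log2FC -0.30 ± 0.05, edgeR adjusted p = 5.43e-05). The ubiquitin-like Isg15 had 376, 389, 249 and 382 CPM with IFN-γ and 278, 296, 219 and 229.6 CPM with both factors (log2FC -0.45 ± 0.09, edgeR adjusted p = 0.000321). IFN-γ replicate 3 was the low well that overlapped with both factors for Isg15, and DESeq2 gave this gene an adjusted p of 0.217. Without that well edgeR called 7 antiviral effectors lower. Bst2 (tetherin), which was not called with all wells (log2FC -0.19), was called when replicate 2 of both factors was left out (log2FC -0.32).

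Upstream sequences of Cxcl10, Ifit3, Isg15 and Oas3 are shown because these genes fell and carry the ISRE core (GAAA, any 2 bases and GAAA again) on one of the strands. They are the 250 bases before the RefSeq start sites in GRCm38.p6, 5′ to 3′ on the strand of the gene, at chr5:92348890-92349139 (minus strand), chr19:34583279-34583528 (plus strand), chr4:156200819-156201068 (minus strand) and chr5:120777660-120777909 (minus strand). Capitals mark the core, which occurs 1, 2, 3 and 1 times, in Isg15 as 3 overlapping matches.
Cxcl10: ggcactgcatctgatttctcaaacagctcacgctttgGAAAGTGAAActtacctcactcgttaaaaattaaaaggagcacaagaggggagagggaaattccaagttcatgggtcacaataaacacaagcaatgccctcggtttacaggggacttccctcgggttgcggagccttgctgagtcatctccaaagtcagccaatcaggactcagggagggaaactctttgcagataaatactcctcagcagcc
Ifit3: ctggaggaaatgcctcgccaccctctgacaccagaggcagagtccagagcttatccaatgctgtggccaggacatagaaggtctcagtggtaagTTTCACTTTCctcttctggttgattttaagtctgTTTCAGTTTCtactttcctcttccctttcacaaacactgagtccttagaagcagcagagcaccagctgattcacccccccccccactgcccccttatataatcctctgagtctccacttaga
Isg15: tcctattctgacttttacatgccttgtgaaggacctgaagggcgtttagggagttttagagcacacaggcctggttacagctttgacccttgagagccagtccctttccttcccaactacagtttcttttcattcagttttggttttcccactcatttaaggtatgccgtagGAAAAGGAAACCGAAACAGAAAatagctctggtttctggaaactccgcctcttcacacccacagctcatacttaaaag
Oas3: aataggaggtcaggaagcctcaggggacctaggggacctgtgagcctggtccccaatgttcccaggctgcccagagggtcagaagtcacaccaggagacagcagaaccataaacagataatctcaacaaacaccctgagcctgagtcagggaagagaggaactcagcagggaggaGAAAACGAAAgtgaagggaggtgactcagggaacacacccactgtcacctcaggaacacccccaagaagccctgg
The ISRE core was present in 300 bases around the start for 8 of the 17 lower, IFN-γ-raised DEGs with a promoter in the table (47.1%), namely these 4 genes and Ddx58, Ifih1, H2-T23 and Ifitm3. It was present for 2 of the 23 other lower DEGs (8.70%, Cdca3 and Tgfbi), for 2 of 29 higher DEGs (6.90%), for 63 of 307 genes that IFN-γ raised at 4 hrs (20.5%) and for 277 of 7192 tested genes (3.85%). The GAS letters TTCNNNGAA were found for 1 of the 17 (5.88%), 49 of the 307 (16%) and 561 of the 7192 (7.80%). Among the 307 genes raised by IFN-γ at 4 hrs, the 63 with an ISRE core had a median log2FC of -0.18 with both factors against IFN-γ, 50 of them below 0, and the 244 without had -0.08, 166 of them below 0. These matches are a description of the letters in the window only, and the difference between the medians was not tested.

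The RNA sensor genes Ddx58 and Ifih1 fell. Ddx58, which encodes RIG-I, had 107, 92.0, 80.0 and 90.3 CPM with IFN-γ and 77.2, 58.8, 55.8 and 40.4 CPM with both factors (log2FC -0.65 ± 0.14, edgeR adjusted p = 0.00312), and Ifih1, which encodes MDA5, had 64.9, 62.0, 54.4 and 52.2 CPM with IFN-γ and 36.9, 36.6, 37.2 and 39.2 CPM with both factors (log2FC -0.62 ± 0.16, edgeR adjusted p = 0.0282). Neither gene had overlapping wells. The call of Ifih1 was kept in 2 of the 8 fits with 1 well left out. Among 16 tested sensing genes 2 fell, beside 0.568% of all tested genes, and 14 were not called. In this list 12 were below 0, beside 51.8% of all tested genes, and the median log2FC was -0.21. Tmem173, which encodes STING, had 184, 168, 174 and 168 CPM with IFN-γ and 124, 137, 159.8 and 141 CPM with both factors (log2FC -0.30 ± 0.09, edgeR adjusted p = 0.125). Its wells did not overlap, but the difference was not called.

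The chemokines Ccl2 and Cxcl10 and the cytokine Il33 fell among 17 tested chemokines, cytokines and decoys, whose median log2FC was -0.22, or -0.13 without either replicate 1 or replicate 4 of both factors. Ccl2, a chemoattractant of monocytes, had 870.2, 847, 628 and 821 CPM with IFN-γ and 401, 562, 439 and 445 CPM with both factors (log2FC -0.77 ± 0.07, edgeR adjusted p = 7.7e-15). Cxcl10, a ligand of CXCR3 on T cells, had 219.9, 314, 184 and 227 CPM with IFN-γ and 159, 184, 142 and 114 CPM with both factors (log2FC -0.65 ± 0.10, edgeR adjusted p = 5.21e-06), and its DESeq2 adjusted p was 0.0683. The alarmin Il33 had 261, 280.3, 269.7 and 279 CPM with IFN-γ and 118, 177, 136 and 166 CPM with both factors (log2FC -0.87 ± 0.09, edgeR adjusted p = 3.46e-13). The mean of Il33, unlike that of both chemokines, was not higher with IFN-γ than in untreated cells, with 326 ± 11.9 CPM (SD, n = 4) in untreated wells, 165 ± 18.3 CPM after Activin-A, 273 ± 9.12 CPM after IFN-γ and 149 ± 27.2 CPM after both. Ccl2 had 69.8 ± 6.78 CPM (SD, n = 4) in untreated wells, 45.1 ± 13.1 CPM after Activin-A, 792 ± 111 CPM after IFN-γ and 462 ± 69.6 CPM after both. The CXCR3 ligand Cxcl9, named here after its value was seen, was not called (log2FC 0.10).

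Of 21 tested members of MHC class I antigen processing and presentation, edgeR called 2 lower and 0 higher, beside 0.568% and 0.457% of all tested genes. DESeq2 called 1 lower and 0 higher. At an unadjusted p under 0.05 there were 9 lower and 0 higher, beside 921 of 8971 genes in either direction. In all, 18 were below 0, beside 51.8% of all tested genes, with a median log2FC of -0.12, or -0.07 without replicate 1 of both factors. Mean log2(CPM + 1) over the list was 8.37 to 8.46 in the IFN-γ wells and 8.25 to 8.31 with both factors, so that the groups did not overlap. H2-K1, a classical class I heavy chain, had 1243, 1205, 1058 and 1201 CPM with IFN-γ and 957, 1035, 988 and 991 CPM with both factors (log2FC -0.24 ± 0.06, edgeR adjusted p = 0.006). H2-T23, the nonclassical Qa-1, had 344, 340.2, 344 and 337 CPM with IFN-γ and 259.7, 288, 256 and 299 CPM with both factors (log2FC -0.31 ± 0.07, edgeR adjusted p = 0.0106). B2m, their common light chain, had 7345, 7302, 6523 and 7407 CPM with IFN-γ and 6564, 6834, 6689 and 6662 CPM with both factors (log2FC -0.09 ± 0.04, edgeR adjusted p = 0.444), and these wells overlapped. Among Ly6 genes, which encode GPI-anchored surface proteins, Ly6c1 had 208, 199, 180.2 and 213 CPM with IFN-γ and 122, 122, 120.4 and 134 CPM with both factors (log2FC -0.68 ± 0.10, edgeR adjusted p = 1.94e-07), and Ly6a, or Sca-1, had 1355, 1236, 998 and 1192 CPM with IFN-γ and 888, 924, 927 and 896 CPM with both factors (log2FC -0.39 ± 0.06, edgeR adjusted p = 1.84e-06). Reads of such multigene families (Ly6, H2, Ifit, Oas and Ifitm) may be shared between copies, so that the assignment to single members is uncertain. Cd47, the ligand of SIRPα, and Lgals3 (galectin-3) were the 2 of 8 tested checkpoint ligands that fell, with log2FC of -0.34 and -0.31, while Cd274, which encodes PD-L1 and was picked after its value was seen, had -0.05. The wells of Cd47 overlapped, its call was kept in 3 of the 8 fits with 1 well left out, and its DESeq2 adjusted p was 0.127, whereas Lgals3 was called in all 8.

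The receptor chains and kinases of IFN-γ signaling were not called. Irf1, a transcription factor that IFN-γ induces, was not called either and had 731, 673, 674 and 706 CPM with IFN-γ and 704, 723, 649 and 730.2 CPM with both factors (log2FC 0.02 ± 0.06, edgeR adjusted p = 0.973). The log2FC were 0.02 for Ifngr1, 0.13 for Ifngr2, 0.14 for Jak1, 0.05 for Jak2, 0.06 for Stat2 and -0.19 for Irf9, each with overlapping wells. Irf7 was the 1 of 19 genes of this list to be called, and had 131, 117, 81.0 and 130.1 CPM with IFN-γ and 85.1, 89.9, 63.5 and 55.4 CPM with both factors (log2FC -0.64 ± 0.14, edgeR adjusted p = 0.00168). Among 12 tested IFN-inducible GTPases, which act on vacuoles of intracellular pathogens, edgeR and DESeq2 called 0, 1 had an unadjusted p under 0.05, 6 were below 0 and the median log2FC was -0.03. Gbp2 had 4737, 4760.2, 4652 and 4957 CPM with IFN-γ and 4555, 4342, 4557 and 4431 CPM with both factors (log2FC -0.09 ± 0.05, edgeR adjusted p = 0.48). Its wells did not overlap, but the difference was small and not called. Irgm1 had 875, 858, 932 and 879 CPM with IFN-γ and 887, 866, 907 and 878 CPM with both factors (log2FC 0.00 ± 0.06, edgeR adjusted p = 0.997), with wells that overlapped.

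**Figure D3:**
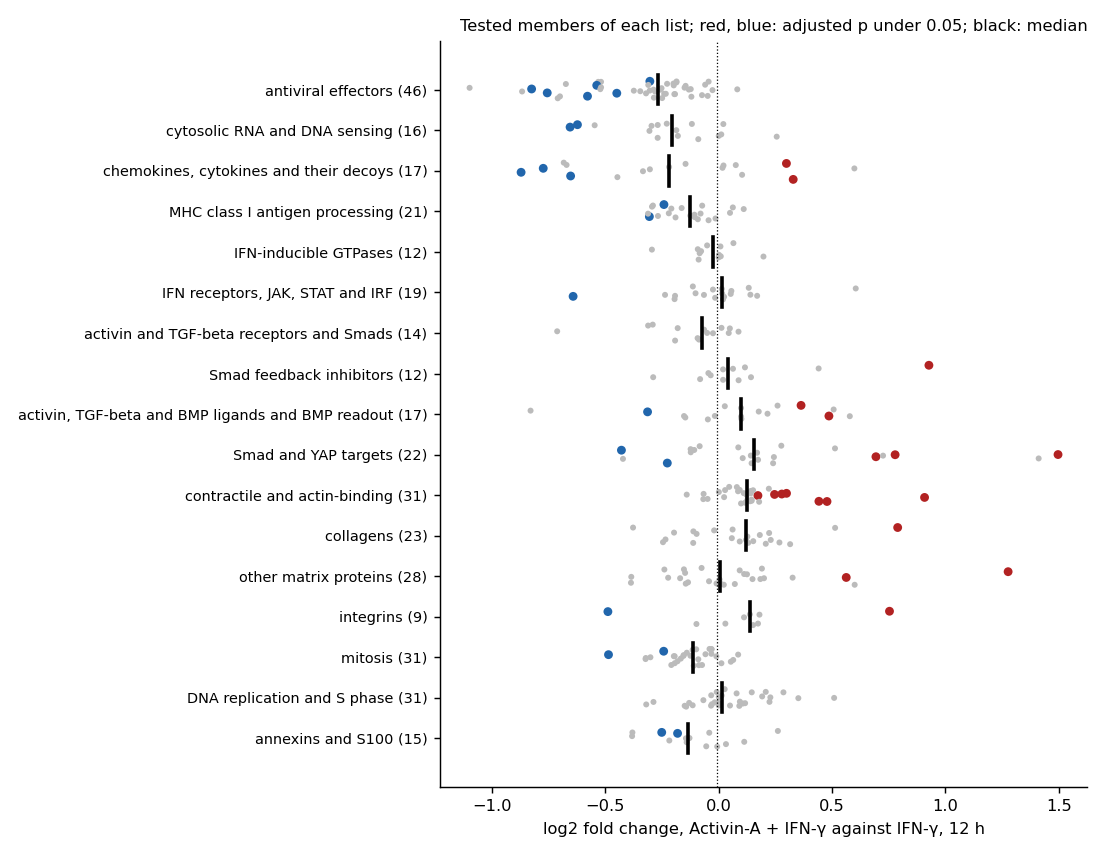
Each dot is a tested gene, placed by its log2FC of both factors against IFN-γ at 12 hrs (x axis) in the row of its list (y axis, number tested in brackets, vertical scatter without meaning). Red and blue dots are DEGs, black bars are list medians and the dotted line is the median of all tested genes. The antiviral list lies left of the line with a median of -0.27 and the contractile list right of it with 0.13.

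The remaining 29 lower DEGs were not raised by IFN-γ at 4 hrs. Nefl, the neurofilament light chain, was lower with each factor than in untreated cells and lowest with both, with 668 ± 21.3 CPM (SD, n = 4) in untreated wells, 338 ± 27.4 CPM after Activin-A, 307 ± 20.0 CPM after IFN-γ and 202 ± 7.36 CPM after both (log2FC -0.60 ± 0.08, edgeR adjusted p = 1.29e-08). Its wells had 311, 331, 304 and 283 CPM with IFN-γ and 210.4, 203, 200.3 and 193 CPM with both factors. Adh7, an alcohol dehydrogenase that oxidizes retinol, was likewise lowest with both, with 217 ± 11.9 CPM (SD, n = 4) in untreated wells, 125 ± 11.8 CPM after Activin-A, 134 ± 13.1 CPM after IFN-γ and 95.0 ± 8.41 CPM after both (log2FC -0.49 ± 0.11, edgeR adjusted p = 0.00312). The IFN-γ wells and the wells with both factors did not overlap for either gene. Adh7, and the genes in the next sentences other than Lgals3, S100a10 and Anxa1, were chosen after their values were seen. Lgals3 had 1547, 1490.2, 1444 and 1535 CPM with IFN-γ and 1149.6, 1330.2, 1169 and 1181 CPM with both factors (log2FC -0.31 ± 0.05, edgeR adjusted p = 2.56e-05). Cavin3, a coat protein of caveolae, had 1159.8, 1139, 1070.5 and 1137 CPM with IFN-γ and 903, 1019, 896 and 957 CPM with both factors (log2FC -0.25 ± 0.05, edgeR adjusted p = 0.00158). Crabp1, a binding protein of retinoic acid, had 7531, 7288, 6709 and 7596 CPM with IFN-γ and 5665, 6646, 6199.9 and 6366 CPM with both factors (log2FC -0.22 ± 0.04, edgeR adjusted p = 0.000534). Wells of these 3 genes did not overlap, although the differences were only 1.24-, 1.19- and 1.17-fold. Of 15 annexins and S100 proteins, S100a10 and Anxa1, whose products act on membranes and inflammation, fell (log2FC -0.25 and -0.18). The EGF receptor ligand Areg had 197, 177, 159 and 146 CPM with IFN-γ and 129.8, 119.9, 128 and 127 CPM with both factors (log2FC -0.41 ± 0.10, edgeR adjusted p = 0.0106).

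Mitotic genes lay mostly below 0. Of 31 tested, 27 were below 0, beside 51.8% of all tested genes, and the median log2FC was -0.11. Only 2 were called lower, beside 0.568% of all tested genes, and at an unadjusted p under 0.05 there were 7 lower and 0 higher, beside 921 of 8971 genes in either direction. Mean log2(CPM + 1) over the list was 7.19 to 7.24 in the IFN-γ wells and 7.06 to 7.11 with both factors, without overlap. The 2 that fell were the phosphatase Cdc25b, with 107, 97.2, 112 and 120.1 CPM with IFN-γ and 77.2, 73.3, 85.4 and 76.1 CPM with both factors (log2FC -0.49 ± 0.12, edgeR adjusted p = 0.0131), and the centromeric histone Cenpa (log2FC -0.24). Cdc25b was called in 6 and Cenpa in 2 of the 8 fits with 1 well left out. Of 31 genes of DNA replication and S phase, edgeR and DESeq2 called 0, 3 had an unadjusted p under 0.05, and the median was 0.01. Of 23 p53 targets, Txnip, an inhibitor of thioredoxin, fell, with 118, 90.0, 83.2 and 97.8 CPM with IFN-γ and 40.3, 70.0, 62.4 and 62.3 CPM with both factors (log2FC -0.71 ± 0.14, edgeR adjusted p = 0.000412). Among 31 tested genes of apoptosis, pyroptosis and necroptosis, only the necroptosis effector Mlkl was called, with 131, 116, 132 and 143 CPM with IFN-γ and 96.3, 107, 88.6 and 103 CPM with both factors (log2FC -0.41 ± 0.11, edgeR adjusted p = 0.0342), and in just 2 of the 8 fits with a well left out. Of 17 melanocyte lineage and neural crest genes, Nefl and Syngr1 fell, whereas the pigment genes Pmel, Tyrp1 and Dct, picked after their values were seen, were not called, with log2FC of -0.12, 0.02 and -0.06. Syngr1, a synaptic vesicle protein, had 34.9, 29.0, 33.1 and 23.2 CPM with IFN-γ and 17.9, 13.3, 16.4 and 16.2 CPM with both factors (log2FC -0.88 ± 0.23, edgeR adjusted p = 0.0282), without overlap, at few counts and with the call kept in 2 of the 8 fits with 1 well left out. The other tested lists (MHC class II, feedback on cytokine signaling, NF-κB, mesenchymal transition regulators, G1 regulators, immediate-early genes, MAPK feedback, hypoxia and glycolysis, amino-acid stress, detoxifying enzymes and sterol synthesis) held 0 DEGs by edgeR or DESeq2, with medians from -0.15 for amino-acid stress to 0.04 for sterol synthesis. With 1 of the 8 wells left out, the sterol median was 0.0207 to 0.0835. Over the 253 tested genes of all 14 lists with 0 calls, 10 had an unadjusted p under 0.05 in the higher and 30 in the lower direction.

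Several DEGs lay outside these lists, and those named next were chosen after their values were seen, except Tfrc and Lpin1, which were named for their size. Tfrc, the transferrin receptor, had 38.5, 19.6, 41.6 and 41.4 CPM with IFN-γ and 45.9, 40.0, 83.2 and 66.9 CPM with both factors (log2FC 0.74 ± 0.18, edgeR adjusted p = 0.0133), with IFN-γ replicate 2 below the other wells and an overlap between the groups. Lpin1, a phosphatidate phosphatase of lipid synthesis, had 44.5, 55.8, 52.2 and 46.4 CPM with IFN-γ and 29.1, 44.4, 25.2 and 26.5 CPM with both factors (log2FC -0.66 ± 0.18, edgeR adjusted p = 0.0353). Both genes had few counts. Tnfrsf12a, the receptor of the cytokine TWEAK, had 270.4, 269.9, 260.1 and 278 CPM with IFN-γ and 353, 361, 304 and 337 CPM with both factors (log2FC 0.33 ± 0.07, edgeR adjusted p = 0.00536). Ank, a transporter of pyrophosphate out of the cell, had 749, 774, 833 and 807 CPM with IFN-γ and 934, 897, 901 and 903 CPM with both factors (log2FC 0.20 ± 0.05, edgeR adjusted p = 0.0348). Wells did not overlap for either. Further higher DEGs were Laptm5, Srm, Mmd, Srsf6, Trio, Usp39, Cdc42bpa, Klhdc8a, Dtl and Eno3, with log2FC from 0.23 to 0.73. Among the lower DEGs, Ramp3, a partner of the calcitonin receptor family, had 90.1, 72.4, 84.2 and 78.7 CPM with IFN-γ and 64.9, 45.5, 49.2 and 58.8 CPM with both factors (log2FC -0.56 ± 0.15, edgeR adjusted p = 0.0273). Rab5c, a GTPase of early endosomes, had 280.0, 335, 357 and 352 CPM with IFN-γ and 364, 151, 222 and 201 CPM with both factors (log2FC -0.50 ± 0.12, edgeR adjusted p = 0.00896), with replicate 1 of both factors above all IFN-γ wells and a DESeq2 adjusted p of 0.699. The ferritin heavy chain Fth1 had 3424, 3351, 3232 and 3278 CPM with IFN-γ and 2834, 2905, 2956 and 2968 CPM with both factors (log2FC -0.18 ± 0.05, edgeR adjusted p = 0.0138), a difference of only 1.14 times. The ribosomal protein Rps3 had a log2FC of -0.22, while all ribosomal proteins together took 9.49% to 10.4% of the counts with IFN-γ and 9.37% to 9.86% with both factors, which was not tested. Further lower DEGs were Pdpn, Chrna1, Use1, Cdca3, Bod1, Nptx1 and Cd81, with log2FC from -0.50 to -0.18. With 1 of the 8 wells left out, the calls of Ank, Srm, Nptx1 and Cd81 were kept in 1 fit, those of Lpin1, Snx24, Eno3, Bod1 and Serping1 in 2 fits and those of Actb, Ramp3, Trio, Cdc42bpa, Cdca3 and Pdpn in 3 fits.

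The DEGs were next looked up in the wells at 12 hrs without IFN-γ. The means of these wells do not enter the contrast that chose the DEGs, but the wells entered its filter, scaling and estimate of spread, and 83 of the 92 were called from the 8 compared wells only. Activin-A against untreated cells at 12 hrs gave 112 higher (1.25%) and 104 lower genes (1.16%). Of the 41 higher DEGs, 25 were called higher there too, 40 had a log2FC above 0, and their median was 0.42. Of the 51 lower DEGs, 18 were called lower there. These 18 were 15 of the 29 genes not raised by IFN-γ at 4 hrs and 3 of the 22 raised ones (Ccl2, Txnip and Arhgdib). The median log2FC of the 22 was -0.16 for Activin-A without IFN-γ, and that of the 29 was -0.24. The medians with IFN-γ are not set beside these, since the genes were chosen by that contrast, which favours larger values there. The shares were not tested against each other. Some of the 22 had few counts in cells without IFN-γ, where a change is less detectable at this depth, such as Ly6c1, with 3.98 ± 1.17 CPM in untreated cells and 2.48 ± 1.71 CPM with Activin-A. With Activin-A alone, 15 of the 22 had a log2FC below 0 and 7 above 0, and 0 were called higher. Serping1 and Oas3 were among the 7, with log2FC of 0.52 (edgeR adjusted p = 0.483) and 0.57 (edgeR adjusted p = 0.721).

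**Figure D4:**
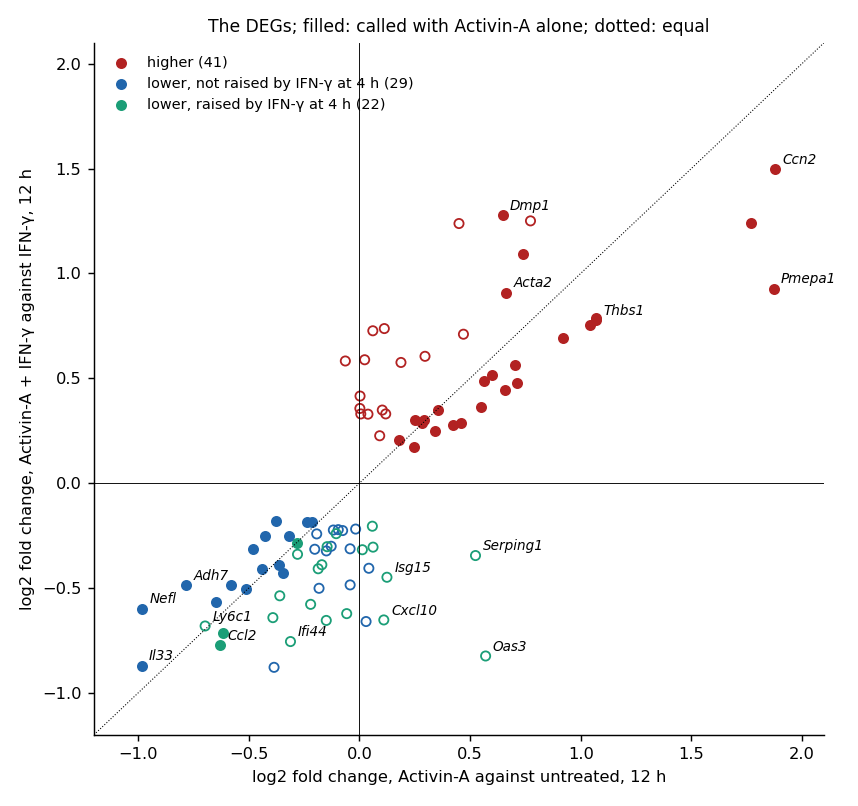
For the 92 DEGs, the log2FC of Activin-A against untreated cells (x axis) is plotted against the log2FC of both factors against IFN-γ (y axis), both at 12 hrs. Red dots are the 41 higher DEGs, green dots the 22 lower DEGs that IFN-γ raised at 4 hrs and blue dots the 29 others; filled dots were called with Activin-A alone, and the dotted line marks equal values.

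A test of the difference between both effects of Activin-A, the interaction, called 1 of 8971 genes (0.0111%), and 612 had an unadjusted p under 0.05. DESeq2 called 0, and leaving out single wells gave 0 to 6 calls. None of the 92 DEGs was called, so that no DEG was shown to respond differently to Activin-A with and without IFN-γ. The called gene was Cth, which encodes the cysteine-forming enzyme cystathionine γ-lyase. It had 42.0 CPM in untreated wells, 71.1 after Activin-A, 59.5 after IFN-γ and 50.1 after both, and its interaction log2FC was -1.02 (edgeR adjusted p = 0.0359). No gene was called without replicate 1, 2 or 3 of untreated cells, replicate 3 of Activin-A, replicate 1 or 4 of IFN-γ or replicate 1 of both factors. The count was 4 without replicate 4 of untreated cells, 3 and 2 without replicates 2 and 4 of Activin-A, 2 and 6 without replicates 2 and 3 of IFN-γ, and 5 and 2 without replicates 2 and 3 of both factors.

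Sets defined in other wells gave a wider view than the DEGs. Of 384 tested genes that IFN-γ raised at 4 hrs, 266 (69.3%) were below 0 with both factors against IFN-γ at 12 hrs, with a median log2FC of -0.09, beside 51.8% and -0.01 for all tested genes. 22 were lower (5.73%) and 3 higher DEGs. Of the 69 genes that IFN-γ lowered at 4 hrs, 41 were below 0 (59.4%), with a median log2FC of -0.06, and 4 were lower (5.80%) and 2 higher DEGs, so that the share of lower DEGs was nearly the same in both sets, which was not tested. Of the 88 raised at least 4-fold, 72 were below 0 (81.8%), the median was -0.15 and 10 were lower DEGs. Activin-A without IFN-γ raised 1.05% and lowered 0.591% of genes at 4 hrs. Replicate 1 of Activin-A at 4 hrs, with a high mitochondrial share (2.14%), is among the wells that chose these genes. The choice was not repeated without this well. Of the 90 raised genes tested at 12 hrs, 72 were above 0, with a median log2FC of 0.14 in the presence of IFN-γ at 12 hrs and of 0.42 in its absence. Of the 53 lowered genes, 48 were below 0, with medians of -0.18 and -0.27. Neither 12 hrs comparison shares wells with the choice of these genes, and the difference between the paired medians was not tested.

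At 4 hrs the same treatments were compared in separate wells. 51 genes were higher (0.558%) and 23 lower (0.252%) with both factors than with IFN-γ. Of the 41 higher DEGs at 12 hrs, 10 were called higher at 4 hrs and 33 were above 0. Of the 51 lower DEGs, 4 were called lower and 43 were below 0. Replicate 1 of Activin-A at 4 hrs had 2.14% mitochondrial counts, beside 1.39% to 1.49% in the other wells of its group. It is in neither group of the comparison of both factors with IFN-γ, which it enters only through the filter, the scaling and the estimate of spread. Without this well the calls at 4 hrs went from 74 (0.81%) to 134. The higher and lower DEGs called there went from 10 to 18 and from 4 to 10. Ccn2 had log2FC of 1.43 (edgeR adjusted p = 3.82e-14) at 4 hrs and 1.50 at 12 hrs, and Thbs1 0.97 (edgeR adjusted p = 3.8e-18) and 0.78. Among the lower genes, Nefl had -0.62 (edgeR adjusted p = 1.08e-08) at 4 hrs, Adh7 -0.58 (edgeR adjusted p = 0.000401), Ccl2 -0.40 (edgeR adjusted p = 0.0011) and Ly6a -0.33 (edgeR adjusted p = 0.00676). Each of these genes therefore had the same direction at both times. Of the 6 antiviral DEGs, edgeR called 0 at 4 hrs, and 0 had an unadjusted p under 0.05. Their log2FC at 4 hrs were -0.23 for Ifi44, -0.15 for Oas3, -0.10 for Ifitm3, -0.01 for Ifit3, 0.00 for Oasl2 and 0.09 for Isg15. The difference between the times was called for Oasl2 only, and its edgeR adjusted p was 0.116 for Ifit3 and 0.11 for Isg15.

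The difference between the effects at 12 hrs and at 4 hrs was called for 9 of 9332 genes (0.0964%), 6 of which are DEGs at 12 hrs. Acta2, Dmp1 and Sertad4 gained, Pmepa1 declined, and the log2FC of Crabp1 and Oasl2 moved downward. Acta2 differed by 0.74 ± 0.09 (edgeR adjusted p = 1.51e-07), from 0.17 at 4 hrs to 0.91. Dmp1 differed by 1.28 ± 0.19 (edgeR adjusted p = 4.93e-06), from -0.01 to 1.28. Pmepa1 differed by -1.53 ± 0.25 (edgeR adjusted p = 6.9e-05), from 2.45 to 0.93. At 4 hrs Pmepa1 had 64.6, 51.5, 36.3 and 58.5 CPM with IFN-γ and 278, 287, 296 and 314 CPM with both factors. These 3 genes were called in each of 17 fits with 1 well left out, Crabp1 in 12, Sertad4 in 7 and Oasl2 in 4. The number of calls was 9 but 3 without replicate 3 and 4 without replicate 4 of IFN-γ at 4 hrs, 5 and 3 without replicates 1 and 4 of both factors at 4 hrs, 5 and 4 without replicates 2 and 4 of IFN-γ at 12 hrs, and 3, 18 and 3 without replicates 1, 2 and 3 of both factors at 12 hrs. DESeq2 called 3 genes.

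**Figure D5:**
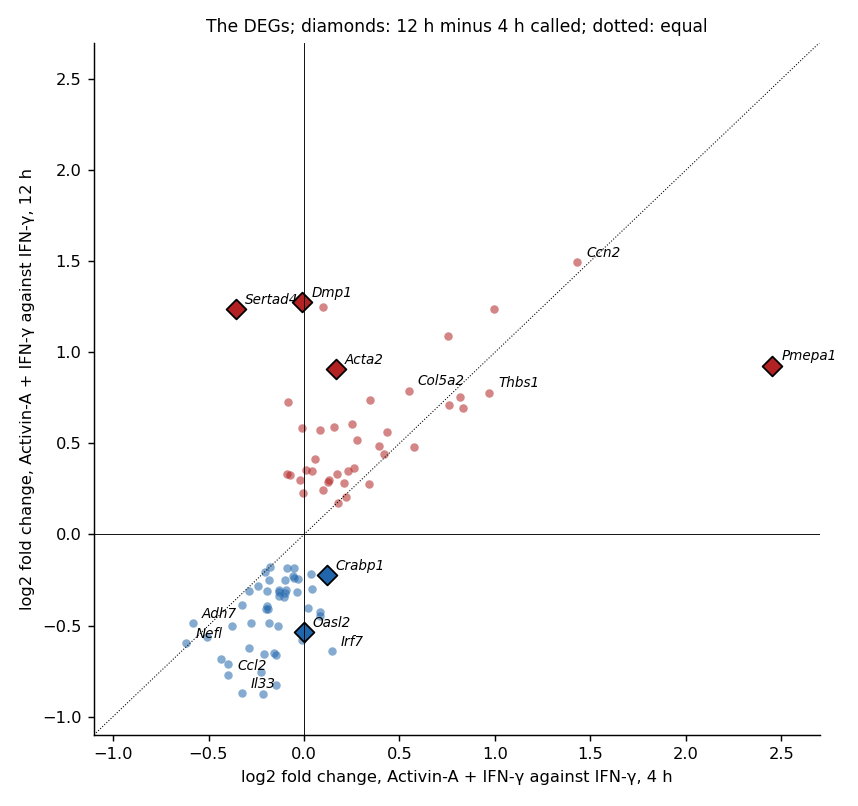
For the 92 DEGs at 12 hrs, the log2FC of both factors against IFN-γ at 4 hrs (x axis) is plotted against the same log2FC at 12 hrs (y axis), with higher DEGs in red and lower DEGs in blue. Diamonds are the 6 DEGs whose difference between the times was called, and the dotted line marks equal values; Dmp1 and Sertad4 lie at or left of 0 at 4 hrs and Pmepa1 far to the right.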

How the data were processed

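YUMM3.3 cells were grown in 6-well plates as quadruplicates per treatment and time point, and their mRNA was measured by BRB-seq. The deposited values are raw counts per Ensembl gene, which the authors made from the sequencing reads. The submitters' processing notes name STAR 2.7.10b, featureCounts, DESeq2 1.36.0 and the mouse build GRCm39/mm39. The annotation and the handling of molecular identifiers are not given in the sources used here, so that counts may include amplification copies, and floors cover counting error only. Totals were 654539 to 1455074 counts in all 32 wells. Between the replicate wells compared, the chi-square per gene was 1.18 to 1.43, so that no wells were treated as copies.

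Symbols were taken from a GENCODE table of GRCm38 (12437 of 12451 genes matched). Some are older names, such as Tmem173 for Sting1. Counts were tested in R 4.3.3 with edgeR 4.0.16 (filterByExpr, TMM scaling, quasi-likelihood test of group means without a block, Benjamini-Hochberg adjustment over all genes tested). The 16 wells at 12 hrs gave 1 estimate of spread, and all 32 wells entered the contrast of 12 hrs with 4 hrs. Log2FC are edgeR's at its default prior count, and SE were derived from the F statistic. A prior count of 2 was used only for the log CPM behind the correlations between replicate wells. CPM are scaled by TMM. In simulated counts of this comparison over 8971 genes, edgeR found 96 of 100 genes changed 2-fold and 65 of 100 changed 1.41-fold, with 8 false calls. The changed genes were drawn only from those of higher mean counts, so that recovery of genes with few counts was not measured.

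Members, gene lists and motifs were chosen with earlier results of these data known. The naming rule took all DEGs in a list, the 12 highest and 12 lowest log2FC among DEGs averaging at least 10 counts, fixed receptors and transducers, and the 2 members of highest mean CPM in each list, and only some of the last are given here. A few genes are not reported here. Promoters were 300 bases of RefSeq on GRCm38.p6, matched by symbol for 7192 of 8971 genes. Where a gene had several, a match in any of them counted. Alternatives were DESeq2 1.42.0, other scaling, filters, wells and thresholds, a replicate block and leaving out each well. Python 3.11.15 was used for tables and figures.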

Additional observations from a re-analysis of the deposited data

Results flagged for a closer look

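Among 224 sets of 4 wells (the genes named in the report, in each of both groups), 10 (4.46%) had 1 well farther from the others than Dixon's 95% limit allows, and chance alone flags about 1 in 20 such sets. In the IFN-γ group, replicate 3 was low for B2m (6523 CPM, others 7302 to 7407), Ifitm3 (1515 CPM, others 1613 to 1633), Isg15 (249 CPM, others 376 to 389) and Oasl2 (228 CPM, others up to 254). All of these are known to be induced by IFN-γ, and each difference from the wells with both factors was computed with this well included. Replicate 1 of the same group was low for Itgb5 (40.9 CPM, others 57.9 to 59.7), and replicate 2 was low for Tfrc (19.6 CPM, others 38.5 to 41.6). In the group with both factors, replicate 1 was high for Ank (934 CPM, others 897 to 903) and Cald1 (317 CPM, others 261 to 268) and low for Itgb7 (89.6 CPM, others 109 to 111). Replicate 4 of this group was high for Ly6c1 (134 CPM, others 120.4 to 122).

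The effect of Activin-A in IFN-γ-treated cells differed between the time points for 9 genes by edgeR's test of the difference. The log2FC at 12 hrs minus that at 4 hrs was -1.53 for Pmepa1, -1.05 for Igsf11, -0.55 for Chst2, -0.54 for Oasl2, -0.35 for Crabp1, 0.42 for Mt1, 0.74 for Acta2, 1.28 for Dmp1 and 1.59 for Sertad4. Igsf11, Chst2 and Mt1 were not DEGs at 12 hrs. For Cth the effect of Activin-A with IFN-γ minus that without was -1.02 at 12 hrs.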

How the results depend on the processing

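Of the 92 DEGs, 38 were called in all 15 alternatives of test, scaling, filter or wells, 42 in all 8 fits that left out 1 well, and none changed direction. DESeq2 called 61 (33 of them lower) of the 4243 genes to which it gave an adjusted p. With edgeR, an adjusted p under 0.01 left 51 (24 higher, 27 lower). With 1 well left out, the count was 62 to 91, 29 to 41 higher and 32 to 50 lower. RLE scaling gave 91, no filter on low counts 101, a mean of at least 10 counts 90, only the 8 compared wells 84 and all 32 wells 72. The replicate block gave 97 (43 higher, 54 lower), 1 gene for the interaction and 6 for the contrast of the times. No pairing of wells by replicate number was seen. Deviations from the group means correlated at -0.01 to 0.00 between wells of the same number and at -0.03 to 0.03 between others. These correlations are over all tested genes and carry much counting error, so that a small shared effect could be missed. The interaction gave 0 genes with DESeq2 and 0 to 6 with 1 well left out, and the contrast of the times 3 genes with DESeq2 and 3 to 18 with 1 well left out. Without the replicate 1 of Activin-A at 4 hrs, an alternative chosen after seeing the data, it gave 12. With 1 well left out, directions turned for these named genes, none of them called: Ifngr1 (-0.096 to 0.164), Irf1 (-0.0044 to 0.051), Irgm1 (-0.012 to 0.037), Jak2 (-0.046 to 0.119), Smad2 (-0.092 to 0.060), Smad4 (-0.164 to 0.012) and Stat2 (-0.015 to 0.145), all as log2FC. The median of the DNA replication list turned too (-0.018 to 0.054), as did that of all tested genes (-0.0098 to 0.0003). So did those of IFN receptors, JAK, STAT and IRF (-0.0431 to 0.0026), feedback on cytokine signaling (-0.1083 to 0.006) and checkpoint ligands (-0.0623 to 0.0162). Further lists were NF-κB (-0.0538 to 0.0383), Smad feedback inhibitors (-0.0272 to 0.0615) and mesenchymal transition regulators (-0.0813 to 0.0059). Log2FC of the 92 DEGs lost significance in 66 values and kept it in 577 under other settings, and lost it in 213 and kept it in 523 with 1 well left out. With this depth 3 counts are 2.42 to 3.49 CPM, which limits genes such as Snx24 and Sertad4.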
